A study of Rattus norvegicus with 24 samples.

Results

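Unplaced scaffolds are pieces of a genome assembly whose position on a chromosome is not known. They were examined here for peaks of INO80 in rat nucleus accumbens, as called on the assembly rn6. All peaks were taken whose sequence name was not chromosome 1 to 20, X, Y or MT, which gave 397 of the 71723 cocaine peaks and 51 of the 2352 saline peaks. The samples came from rats that self-administered cocaine or from saline rats, and the labels give every sample the same protocol, with tissue taken 30 days after extended drug access. The 24 libraries are INO80 ChIP and sonicated input DNA of each treatment, 6 libraries per group from 3 numbered samples with 2 runs each. The labels do not say whether a numbered sample is 1 animal or several, and give no strain, sex or age. Each list was called once, on the 3 ChIP samples pooled against the 3 pooled inputs, so there is 1 list per treatment, no replicate error and no test between treatments. The ChIP pools held 43489910 cocaine and 37905014 saline tags after filtering, a ratio of 1.15, and the inputs 101490635 and 100697179.

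INO80 is the ATPase of a remodelling complex that slides nucleosomes and exchanges histone variants, and it acts at promoters, at stalled replication forks and at DNA breaks. The nucleus accumbens is a ventral part of the striatum that takes part in reward and drug seeking. Sequence left unplaced in an assembly is often repeated or duplicated, because copies that resemble each other are hard to order. Reads from copies that an assembly lacks can pile up on the copy it holds, in ChIP and input alike, so the input at each peak is given beside its ChIP value below. No rn6 sequence or annotation was used here, and genes and repeats on these scaffolds were not analysed.

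Cocaine peaks were found on 143 scaffolds and saline peaks on 21, and 18 scaffolds carried both. Single peaks were common, with 1 peak on 74 of the 143 cocaine scaffolds (51.7%) and on 11 of the 21 saline scaffolds (52.4%). Scaffolds with 5 peaks or more were 21 in the cocaine list, with 199 of its 397 peaks, and 3 in the saline list, with 22 of its 51. KL568139.1 had the most cocaine peaks, 28, with 4 in the saline list. AABR07024382.1 and KL568414.1 had 20 cocaine peaks each and AABR07024291.1 had 16, and none of these 3 scaffolds had a saline peak. KL568144.1 had the most saline peaks, 11, against 9 in the cocaine list. KL568143.1 had 6 peaks in each list, KL568146.1 had 7 cocaine and 5 saline peaks, and KL568142.1 had 4 and 3. Of the 146 scaffolds with a peak of either list, 125 had cocaine peaks only and 3 saline peaks only.

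**Figure D1:**
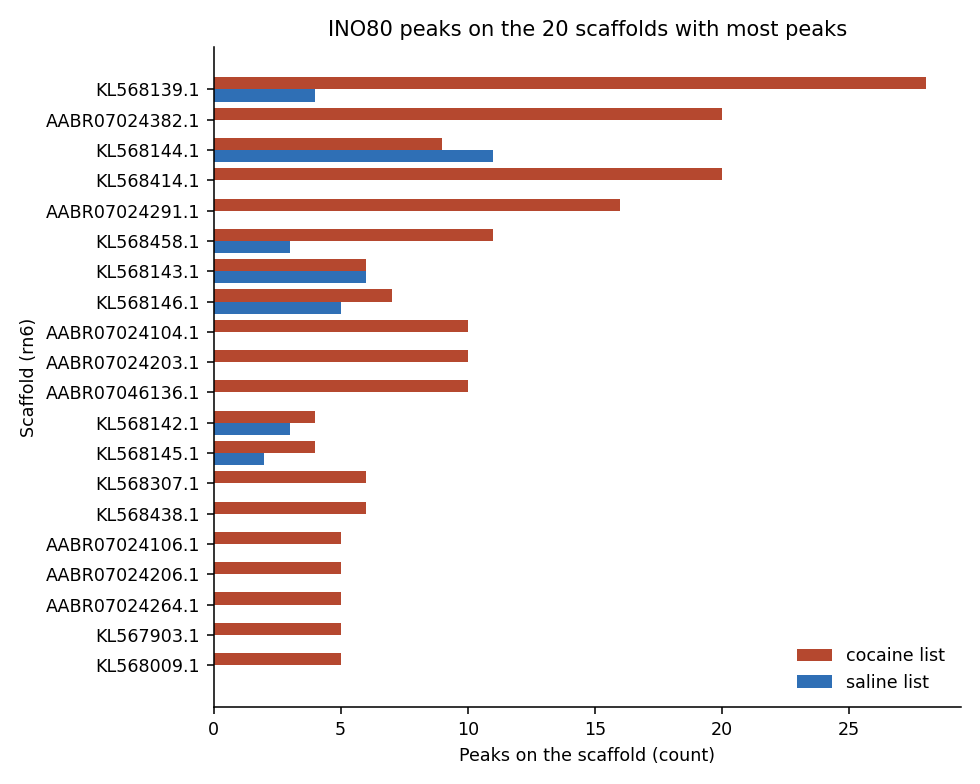
Peaks per scaffold in the cocaine list (red) and the saline list (blue), for the 20 scaffolds with most peaks of both lists together, ties by name. KL568139.1 leads the cocaine list with 28 peaks, and KL568144.1 carries 11 saline and 9 cocaine peaks.

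Relative to the rest of the genome, the scaffolds held few cocaine peaks for each saline peak. They carried 0.554% of the cocaine list (Wilson 95% interval 0.502 to 0.611) and 2.17% of the saline list (1.65 to 2.84). There were 7.78 cocaine peaks per saline peak on scaffolds (exact 95% interval 5.80 to 10.6) and 30.2 on chromosomes 1 to 20 (28.9 to 31.5). All 20 chromosomes had a higher ratio, from 11.2 on chromosome 1 to 145 on chromosome 11. These intervals hold counting error alone, and peaks close to each other share fragments of the same stretch. The low ratio rested in large part on the 5 scaffolds KL568142.1 to KL568146.1, which held 27 of the 51 saline peaks (52.9%) and 30 of the 397 cocaine peaks (7.56%). Without them the ratio was 15.3, inside the range of the chromosomes. These 5 were set apart after their values were seen.

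Overlap between the lists was frequent among saline scaffold peaks and less so among cocaine ones. Of the 51 saline peaks, 39 overlapped a cocaine peak by at least 1 bp (76.5%, Wilson interval 63.2 to 86.0), where 79.7% of the whole saline list did. The 397 cocaine peaks met a saline peak at 39 (9.82%, 7.27 to 13.1), where 2.51% of the whole cocaine list did. On each of chromosomes 1 to 20 the cocaine share was lower, at most 7.05%, on chromosome 1. Without KL568142.1 to KL568146.1 the shares on scaffolds were 58.3% of saline and 3.81% of cocaine peaks. Each of the 39 saline peaks met exactly 1 cocaine peak, and 28 of the 39 pairs had summits at most 10 bp apart. On chromosomes 1 to 20 these counts were 1773 and 1031 of 1806 pairs. Of the 28 scaffold pairs with close summits, 23 lay on KL568142.1 to KL568146.1, which held 25 of the 39 pairs.

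**Figure D2:**
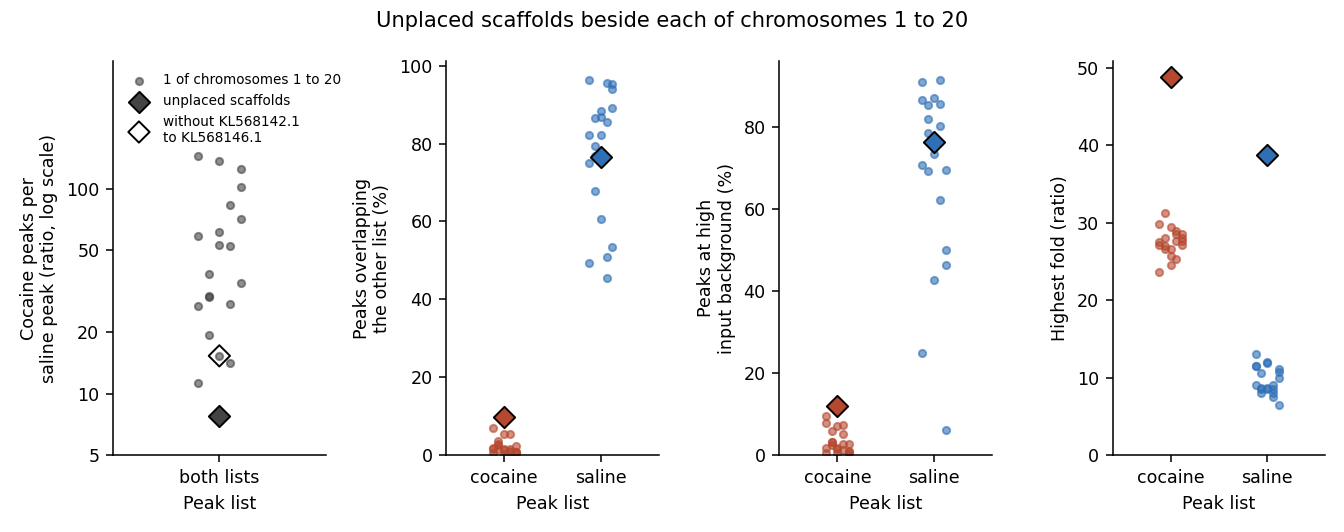
Each point is 1 of chromosomes 1 to 20 and each filled diamond the unplaced scaffolds, for the ratio of cocaine to saline peaks (log axis), the percent of peaks overlapping the other list, the percent at 10 times the genome-wide input background or more, and the highest fold. The scaffolds lie below all 20 chromosomes in the first panel (7.78), and the open diamond gives their ratio without KL568142.1 to KL568146.1 (15.3).

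The local input background was recovered for each peak from the authors' fold, which is the pileup plus 1 over the background plus 1. It is given in multiples of the genome-wide background of the pool, and that level is also the lowest the caller allows. Most cocaine scaffold peaks stood on ordinary input, with 314 of 397 under 3 times the genome-wide level (79.1%), where 91.4% of the whole cocaine list did. High background, at 10 times or more, was found at 48 of the 397 (12.1%, 9.24 to 15.7), against 3.52% of the whole list and at most 9.71% on any of chromosomes 1 to 20. In the saline list 39 of 51 scaffold peaks had a high background (76.5%, 63.2 to 86.0), against 80.8% of the whole list. Median background at cocaine peaks was 1.46 times the genome-wide level on scaffolds and 1.09 times on chromosomes 1 to 20. In input fragments these medians were 4 and 3, and the interval of the scaffold median, 1.09 to 1.46 times, reached the chromosome value. The scaffold median was 1.09 times, as on the chromosomes, without KL568139.1, without KL568142.1 to KL568146.1, or as the median over scaffolds. At saline peaks the medians were 16.8 times on scaffolds and 19.9 times on chromosomes 1 to 20. Peaks at the genome-wide level itself were 144 cocaine (36.3%) and 9 saline (17.6%) on scaffolds, where 40.6% and 10.8% of the whole lists were. Those 9 were the only saline scaffold peaks under 3 times background, where 15.5% of the whole saline list was. Moving the limit to 20 times left 3.78% of cocaine and 23.5% of saline scaffold peaks above it. Of the 48 cocaine peaks at high background 28 lay on KL568142.1 to KL568146.1, and of the 39 saline ones 26 did. Without those 5 scaffolds the high-background shares were 5.45% of cocaine and 54.2% of saline scaffold peaks.

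Pileups, which count the ChIP fragments stacked at the summit, had a higher median on scaffolds than on chromosomes 1 to 20 in the cocaine list, and a lower one in the saline list. Cocaine scaffold peaks had a median pileup of 24 (order-statistic 95% interval 21 to 26), against 19 on chromosomes 1 to 20 and at most 21 on any 1 of them. Without KL568142.1 to KL568146.1, or as the median over scaffolds, it was 21, level with the highest chromosome. A pileup of 40 or more was reached by 116 of the 397 (29.2%), and by 13.9% on chromosomes 1 to 20. The saline medians were 50 (46 to 58) on scaffolds and 58 on chromosomes 1 to 20. Median cocaine fold was 7.44 on scaffolds and 7.64 on chromosomes 1 to 20, and median saline fold 3.12 and 3.07. Peaks were of like length on scaffolds and chromosomes, with medians of 106 and 103 bp for cocaine and 94 and 90 bp for saline.

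**Figure D3:**
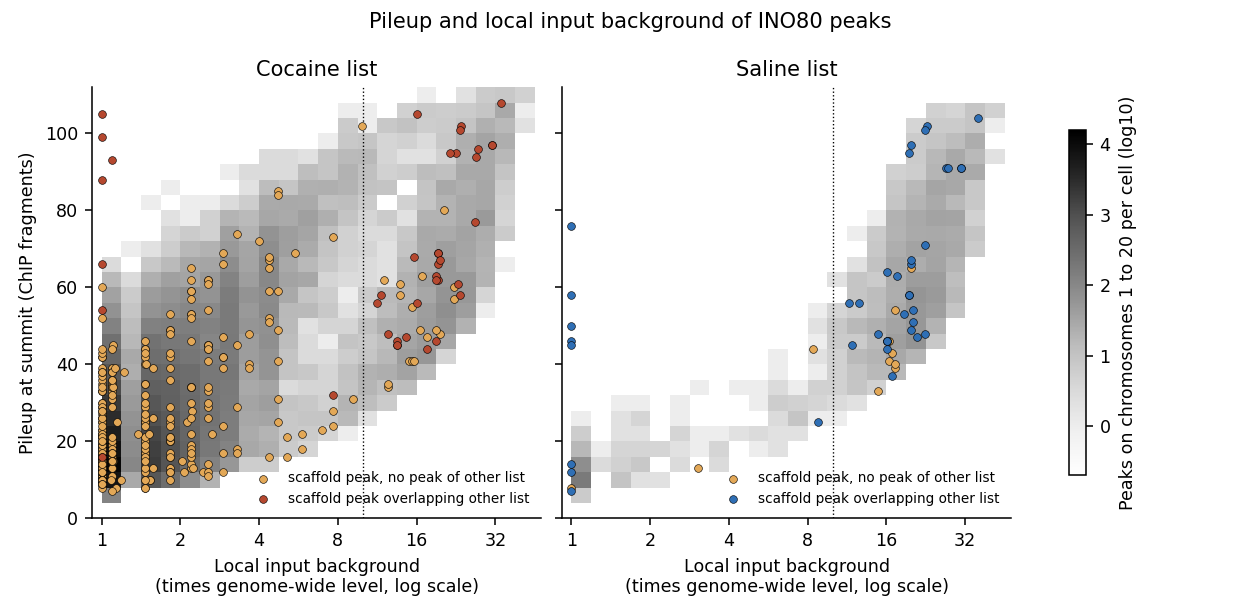
Pileup at the summit against local input background (log axis) for scaffold peaks (points, red or blue where a peak of the other list overlaps, orange where none does) over the counts of peaks on chromosomes 1 to 20 (grey, log10 scale), with a dotted line at 10 times the genome-wide level. At the left edge, 5 saline points with pileups from 45 to 76 stand above every grey cell at that background, where the highest saline pileup on chromosomes 1 to 20 was 25.

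The highest fold of each list was found on a scaffold, at a peak with no excess of input, and the leading sites were called after both treatments. KL568292.1 came first in each list. Its cocaine peak (1213 to 1448) stacked 105 fragments for a fold of 48.8, and its saline peak (1220 to 1426) 76 fragments for a fold of 38.8. Both stood at the genome-wide background, where the largest fold that the caller can give is 50.1 for cocaine and 52.9 for saline. AABR07022335.1 was next among cocaine peaks (3 to 408, pileup 99, fold 46.0), and its saline peak (7 to 568) reached 50 fragments and a fold of 25.7. On KL568304.1 the cocaine peak (5954 to 7170) reached 93 fragments and a fold of 41.1 over a background of 1.09 times. The saline peak there (5961 to 7161) reached 45 fragments and a fold of 23.2. This pair was also wide, at 1217 and 1201 bp. KL568201.1 had a pair of such sites. Cocaine pileups there were 66 (2 to 152) and 88 (577 to 687), with folds of 30.8 and 40.9. Saline pileups were 46 (4 to 145) and 58 (601 to 685), with folds of 23.7 and 29.7. At each of these 5 sites the cocaine pileup was the higher of the pair.

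The saline peaks of these 5 pairs were higher than any on chromosomes 1 to 20 at the same input. At the genome-wide background, the highest pileup on chromosomes 1 to 20 was 67 in the cocaine list (27329 peaks) and 25 in the saline list (236 peaks). All 5 saline peaks, at 45 to 76 fragments, lay above that. A fold of 20 or more, a limit set after the values were seen, was reached by 5 of the 51 saline scaffold peaks and by no saline peak elsewhere (0.213% of the whole list). It was reached by 11 of the 397 cocaine scaffold peaks, where 1.03% of the whole cocaine list passed it. The highest fold on chromosomes 1 to 20 was 31.3 for cocaine and 13.1 for saline, and on X 28.9 and 8.06, with lower values on Y and MT. The remaining pairs of ordinary input were lower. KL568245.1 had a pileup of 54 in cocaine (9 to 358) and 14 in saline (46 to 317), and KL567881.1 had 16 (9349 to 9728) and 12 (9392 to 9602).

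Some of these sites began at the very start of their scaffold, where a peak can be cut by the end of the sequence. Of the cocaine peaks 9 started within the first 50 bases, and of the saline peaks 3. They included the pairs of AABR07022335.1 and KL568245.1 and 1 pair of KL568201.1. A cocaine peak on AABR07022676.1 (14 to 685) reached a pileup of 102 over 9.85 times the genome-wide background, with a fold of 8.19 and no saline peak. KL568493.1 (18 to 849) reached 52 fragments in the cocaine list, for a fold of 24.4, also with no saline peak. The background is taken by the caller over stretches of up to 10000 bp, and how scaffold ends bear on it was not tested. Above the lowest level, the recovered background equalled a whole number of input fragments, within 0.01, at 224 of 253 cocaine and 42 of 42 saline scaffold peaks.

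The scaffolds KL568142.1 to KL568146.1 carried the opposite kind of site, with input from 5.84 to 33.6 times the genome-wide level under cocaine peaks and from 8.78 to 35.9 times under saline peaks. Of their 27 saline peaks 25 overlapped a cocaine peak. Unscaled input at the 25 pairs reached 94 fragments in the saline pool and 92 in the cocaine pool, with a median of 52 and 53. The highest stack lay on KL568146.1, where the cocaine peak (1494 to 1646) had a pileup of 108 and the saline peak (1493 to 1647) a pileup of 104. Those are the highest pileups possible once duplicate tags are removed. The folds there were low, at 2.70 and 2.89. Over the whole set folds ran from 2.42 to 4.01 in the cocaine list and from 2.43 to 4.76 in the saline list. The unscaled input recovered on chromosomes 1 to 20 also reached 108 fragments (cocaine) and 104 (saline) and no more. Deep input, and the folds taken over it, may thus be limited in the same way as the pileups, which was not tested.

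Peaks on these scaffolds recurred with the same spacing and the same values. On KL568144.1 the cocaine peak at 178550 to 178648 and the one at 200156 to 200254 were 21606 bp apart. They shared a length of 99 bp, a pileup of 97, a fold of 2.62 and a background of 31.0 times. The saline list repeated this at 178552 to 178648 and 200158 to 200254, again 21606 bp apart, each with a length of 97 bp, a pileup of 91 and a fold of 2.92. A second arrangement on that scaffold was a pair of summits 387 bp apart, which the saline list held 3 times, with pileups of 44 and 65, 46 and 66, and 46 and 67. The cocaine list held it in full at 2 of those places, with summits 386 bp apart and pileups of 46 and 66 and of 45 and 67. At the remaining place it had only the first peak, with a pileup of 45.

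A like arrangement linked different scaffolds. On KL568142.1 the highest cocaine summit had a pileup of 102 and was followed at 410 and 667 bp by summits of 63 and 69. On KL568143.1 it had a pileup of 101 and was followed at 409 and 666 bp by summits of 62 and 69. The peaks of 69 (176814 to 176879 and 181512 to 181577) agreed in length, 66 bp, in fold, 2.95, and in the place of the summit. In the saline list the same places had pileups of 102 and 58 on KL568142.1 and of 101, 51 and 58 on KL568143.1. The saline list had no middle summit on KL568142.1. A summit 519 bp before the highest one, with pileups of 48 in cocaine and 45 in saline, was called on KL568143.1 only. Far from them lay a further summit on each scaffold, 122745 bp away on KL568142.1 and 122643 bp on KL568143.1, with cocaine pileups of 94 and 96 and saline pileups of 91 at both. Alignments are named as unique reads in the file headers. Whether these stretches are copies of each other was not tested.

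**Figure D4:**
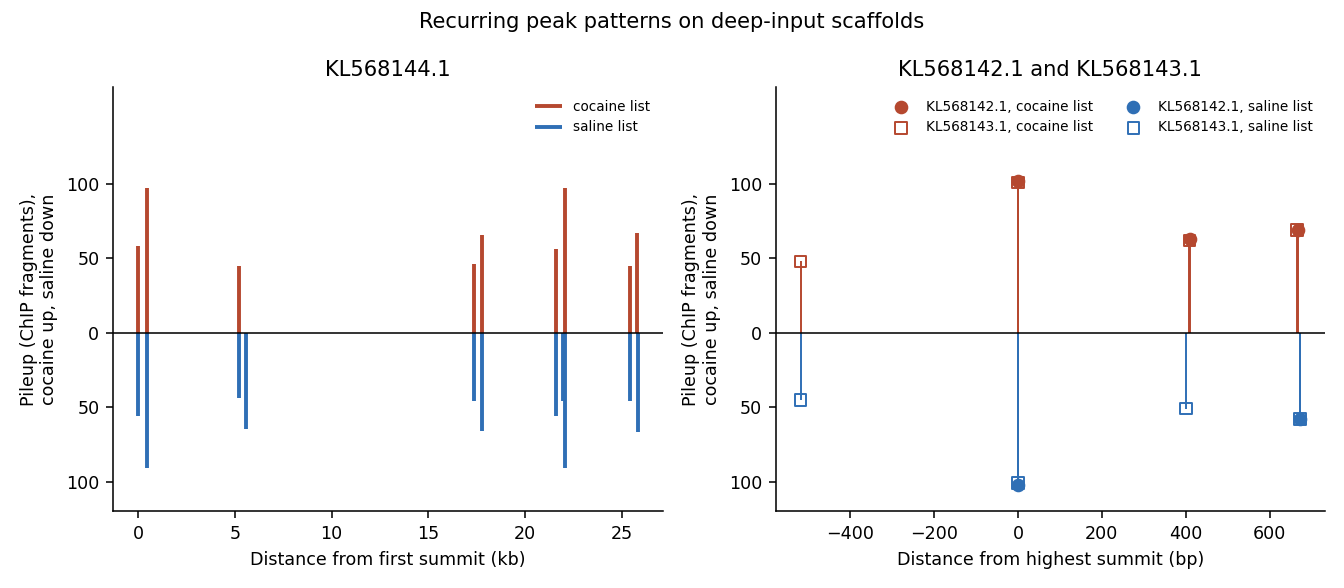
Pileup at each summit for the cocaine list (red, upward) and the saline list (blue, downward), against distance from the first summit on KL568144.1 (left) and from the highest summit on KL568142.1 and KL568143.1 (right). On the left, the tall cocaine summit of 97 fragments returns 21606 bp further on, and on the right the marks of both scaffolds lie close together, except at 519 bp before the highest summit and at the saline summit at 400 bp, which KL568143.1 alone has (the distant summits are not drawn).

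Among high-background scaffold peaks, 4 of 48 in the cocaine list and 4 of 39 in the saline list had a counterpart of the same length, pileup, fold and summit offset. On chromosomes 1 to 20 the shares were 2.14% of 2426 and 3.43% of 1839 high-background peaks. The scaffold counterparts are those just named. Over all backgrounds the share was 143 of 397 cocaine scaffold peaks (36.02%), of which 131 lay under 3 times background, against 21.3% on chromosomes 1 to 20. In the saline list it was 4 of 51 (7.84%), against 4.19%. Matching length, pileup and fold alone, without the summit offset, reversed the cocaine order, at 58.7% on scaffolds and 66.5% on chromosomes 1 to 20. The saline shares were then 15.7% and 7.58%. Of cocaine peaks under 3 times background, 69.7% on scaffolds and 72.3% on chromosomes 1 to 20 matched without the offset. With the offset 41.7% and 23.1% did. Whether any of these matches reflect repeated sequence was not tested.

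At the 39 overlapping pairs, cocaine and saline pileups were close where the input was deep, and the cocaine pileup was the higher where it was not. The 30 pairs with high background in both lists had a median ratio of cocaine to saline pileup of 1.04, from 0.868 to 1.30, below the 1.15 that the depths of the ChIP pools would give. Cocaine was higher at 18 of them, saline at 5, and 7 were equal. Pileups cannot pass the ceilings of 108 (cocaine) and 104 (saline), and several deep pairs lie near them. Over the 21 of these pairs with under 80 fragments in both lists, a limit set after the values were seen, the median ratio was 1.06, from 0.868 to 1.30. In all 30 the exact 95% interval of the ratio included 1.15. The ratio of unscaled inputs at these pairs had a median of 1.04. The 7 pairs of ordinary background had a median pileup ratio of 1.52, from 1.33 to 3.86, and all 7 lay above 1.15. Counting error alone was enough to cover that gap at 4 of the 7. The intervals lay above 1.15 on KL568245.1 (54 against 14 fragments, 3.86, 2.11 to 7.52), KL568304.1 (93 against 45, 2.07, 1.43 to 3.02) and AABR07022335.1 (99 against 50, 1.98, 1.40 to 2.84). Spread between animals is not part of these intervals. Summit positions, saline minus cocaine, differed by 148, -193 and 229 bp at these 3 pairs, in the order named. At the other 4 they differed by -11 to 3 bp. The 3 ratios thus compare different positions within the overlapping peaks.

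Chromosomes 1 to 20 gave like median ratios when paired in the same way. There the median pileup ratio was 1.06 over 1480 pairs of high background and 1.5 over 225 pairs of ordinary background. The scaffold pairs are therefore not shown to differ from those of the chromosomes in median ratio. Cocaine was higher at 1129 of the 1480 chromosome pairs, against 18 of 30 on scaffolds. The ratio lay above 1.15 at 186 of the 225 ordinary chromosome pairs, against all 7 on scaffolds. Saline pileups of ordinary pairs had a median of 46 over the 7 scaffold pairs and 11 on chromosomes, where the highest was 29. Those of KL568245.1 and KL567881.1, at 14 and 12, lay in the range of the chromosomes. The rest are the high-fold pairs already named above.

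**Figure D5:**
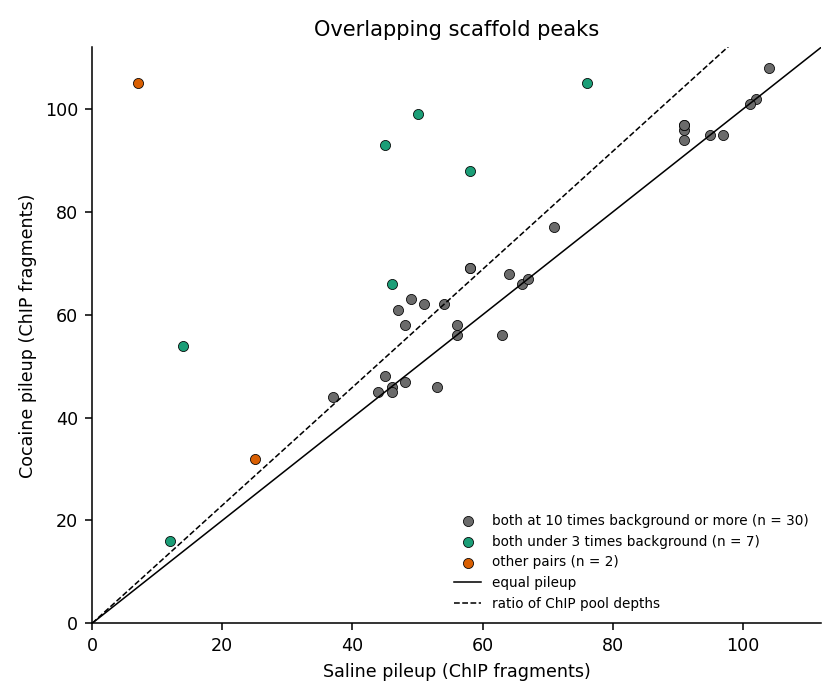
Cocaine against saline pileup at the 39 overlapping scaffold pairs, by the input background of both peaks, with lines for equal pileup (solid) and for the 1.15 ratio of ChIP depths (dashed). The 30 pairs on deep input (grey) lie near the lines, the 7 on ordinary input (green) above both, and the other 2 (orange) include KL568237.1 at 7 and 105 fragments.

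Most cocaine scaffold peaks, 358 of 397, had no overlapping saline peak, as in the whole cocaine list. The overlapping share was 9.82% on scaffolds and 2.51% of the whole list. The 358 scaffold peaks without overlap had a median pileup of 21 and a median fold of 7.82. Their median background was 1.10 times the genome-wide level. Of the 314 peaks under 3 times background 7 overlapped a saline peak (2.23%), where 0.343% of all such cocaine peaks did. At 10 times or more 31 of 48 did (64.6%), where 61.3% of all such cocaine peaks did. Saline peaks overlapped a cocaine peak at 8 of the 9 under 3 times background and at 30 of the 39 at 10 times or more (76.9%). Over the whole saline list these shares were 82.7% and 80.7%. A cocaine peak as low as 8 fragments and a saline peak as low as 7 were called at the genome-wide background on scaffolds. Of the cocaine scaffold peaks under 3 times background, 51 of 314 had 40 fragments or more (16.2%), against 7.48% of such peaks on chromosomes 1 to 20.

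Several scaffolds held groups of cocaine peaks and no saline peak. Lack of a saline peak was the usual case in the cocaine list, of which 2.51% overlapped one. Of all cocaine scaffold peaks 51.1% had another peak within 1 kb, against 61.0% on chromosomes 1 to 20. On AABR07046136.1, 10 cocaine peaks lay within 5.70 kb (7197 to 12898), with pileups from 18 to 84, a median of 67, and folds from 8.74 to 15.8. Input there was moderate, from the genome-wide level to 5.47 times it. AABR07024203.1 had 10 peaks over 38.7 kb (56883 to 95596) with pileups from 13 to 52 and a highest fold of 20.04. AABR07024104.1 had 10 peaks with pileups from 16 to 38 and a median fold of 9.66. On AABR07024382.1 the 20 peaks were lower, with a median pileup of 19 and a highest of 34, over at most 2.55 times background. KL568414.1 had 20 peaks with a median pileup of 29.5 and a highest of 73. The group of 11 at its start (555 to 32645) had a median pileup of 44 and a median fold of 13.3.

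AABR07024291.1 held the highest cocaine fold among scaffold peaks without a saline peak. Its 16 peaks had pileups from 11 to 62, with 8 of them between 125600 and 133745. The peak at 130646 to 130751 stacked 60 fragments, for a fold of 28.0 close to the genome-wide background. A peak 1013 bp wide (132415 to 133427) followed, with 59 fragments and a fold of 9.13 over 4.74 times background. KL568464.1 had a single peak (63797 to 63921, pileup 44, fold 20.7). On KL568307.1 the highest fold, 20.2, was at 23479 to 23568 (pileup 43), in a group of 5 peaks (21215 to 23811). Wide ones were found on KL568300.1 (6020 to 7079, 1060 bp, fold 15.2) and KL568257.1 (23127 to 24067, 941 bp, fold 17.0).

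KL568139.1, with peaks as far as 9752259, held both kinds of site in separate stretches. Between 9651889 and 9659118 there were 18 cocaine peaks over 7.23 kb and no saline peak. Their pileups ran from 12 to 41, their folds from 3.36 to 8.07, and their background had a median of 2.50 times the genome-wide level. Between 9745698 and 9752259 there were 7 cocaine and 4 saline peaks on deep input, with a median background of 22.3 times in the cocaine list and cocaine folds from 2.08 to 2.95. Of these 7, 3 overlapped a saline peak. Pileups at the overlaps were 58, 44 and 61 in cocaine and 48, 37 and 47 in saline. The other 3 cocaine peaks of the scaffold were isolated and low, with 8 fragments each. KL568458.1 was divided in the same way, with 7 of its 11 cocaine peaks between 7.66 and 19.7 times background and 4 at 1.09 times or less. None of its cocaine peaks overlapped any of its 3 saline peaks.

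The 12 saline peaks without an overlapping cocaine peak lay mostly on deep input, as did the saline list as a whole. A high background was found at 9 of them (75%). The share was 76.9% of the overlapping saline scaffold peaks and 80.8% of the whole saline list. Of the 12, 6 had a cocaine peak at most 335 bp away. The 12 were short, with a median of 61 bp. KL568345.1 (10846 to 10901) had the highest fold, 4.85, with a pileup of 44 over 8.40 times background and no cocaine peak on the scaffold. KL568077.1 (9037 to 9091, pileup 13) and KL568457.1 (30470 to 30574, pileup 39) likewise had none. The peak on KL568160.1 (2789186 to 2789249, pileup 8, fold 4.53) was the only 1 of the 12 at the genome-wide background. On KL568144.1 the peak at 183673 (pileup 65) was the second summit of the recurring 387 bp pair, at the place where the cocaine list held only the first.

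The scaffolds fall into those named KL and those named AABR in the files. KL scaffolds held 292 cocaine and 49 saline peaks on 117 and 19 scaffolds, and AABR scaffolds 105 and 2 peaks on 26 and 2. Cocaine peaks on AABR scaffolds overlapped a saline peak at 2 of 105 (1.90%) and those on KL scaffolds at 37 of 292 (12.7%). In the whole cocaine list 2.51% did. Median cocaine fold was 9.42 on AABR scaffolds, 6.90 on KL scaffolds and 7.64 on chromosomes 1 to 20. A high background was found at 0.952% of AABR and 16.1% of KL cocaine peaks, against 3.52% of the whole cocaine list. KL568142.1 to KL568146.1 account for 25 of the 37 overlaps.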

How the data were processed

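The authors called peaks with MACS 2.0.10.20131216, per the file headers. The call used 3 pooled ChIP alignments of merged, unique, duplicate-free reads against 3 pooled inputs, with a q cutoff of 0.05. The caller worked with fragment lengths of 54 (cocaine) and 52 bp (saline), close to the tag size of 51 bp. These lengths are the caller's values, and they set the pileups, their ceilings and the genome-wide background. Positions are on rn6, a build named by the submitters' processing notes. Which aligner was used is not given. The deposited pileup is an unscaled signal. The deposited fold is a ratio of pileup to local background. The deposited −log10 p and −log10 q served to check the recovered background and to set a stricter list. Peak length was used as deposited, per the file headers.

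From pileup and fold the local background was computed, divided by the genome-wide level (1.17 and 0.986 fragments), and unscaled by the ChIP-to-input ratios (0.429 and 0.376) to input fragments. Recomputed −log10 p differed from the deposited values by less than 0.0001. Removing duplicates limits pileups to 108 and 104. Shares carry Wilson intervals, and ratios of counts exact binomial intervals, at the 0.95 level. Medians carry order-statistic intervals. Regions named are the 10 scaffolds with most peaks per list, the 10 highest folds per list and among pairs, the 5 widest, those at the ceiling, and saline peaks with no counterpart. Other regions were named after their values were seen. The members and limits were chosen with earlier results of these data known. Sample depth was not used, since each list pools its samples. Python 3.11.15, numpy 2.4.6, pandas 2.3.3, scipy 1.17.1 and matplotlib 3.10.9 were used, and overlap and joining steps were tested on simulated data.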

Additional observations from a re-analysis of the deposited data

Results flagged for a closer look

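At KL568237.1 the input of the cocaine pool was deep where that of the saline pool was not. The cocaine peak (2912 to 4195) was the widest on any scaffold, at 1284 bp, and stacked 105 fragments for a fold of 5.34. The unscaled input there was 44 fragments in the cocaine pool, while the saline peak inside it (3332 to 3383, pileup 7, fold 4.03) stood at the lowest level the caller allows, 2.62 fragments. Of the 39 overlapping pairs it was the only 1 whose input differed by 5 times or more (2.56%). On chromosomes 1 to 20 such a difference was found at 61 of 1806 pairs (3.38%), each time with the deeper input in the cocaine pool.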

How the results depend on the processing

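Of 68 alternatives to 16 results, 54 stayed within 1.5 times for counts or within the interval of the value, and 14 did not. Counting edges within 1 kb as shared raised the saline share from 76.5% to 88.2%. A limit of 20 times background lowered the high-background shares to 3.78% (cocaine) and 23.5% (saline). Taking the median over scaffolds of each scaffold's median gave a cocaine background of 1.09 times and a saline fold of 3.59. Scaling to ChIP depth moved the median pileup ratio of pairs from 1.07 to 0.929.

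Without KL568142.1 to KL568146.1, chosen after seeing their values, the saline list kept 24 scaffold peaks, the ratio was 15.3, and the overlapping shares were 58.3% (saline) and 3.81% (cocaine). The high-background shares were then 5.45% (cocaine) and 54.2% (saline), and the saline medians 44.5 for pileup and 15.5 times for background. Leaving out KL568139.1, the scaffold with most peaks, took the median cocaine background from 1.46 to 1.09 times as well, the lower end of its interval, and kept the other results it was tried on within their ranges. No paired analysis was possible because each list pools its samples, and for the same reason no replicate could be left out. Counts of 51 saline peaks on 21 scaffolds limit every saline share.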
